A study of Saccharomyces cerevisiae with 12 samples.

Results

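The genes described here are the flocculins of budding yeast and the regulators of filamentous growth, chosen by name: FLO1 (YAR050W), FLO5 (YHR211W), FLO9 (YAL063C), FLO10 (YKR102W), FLO11 (YIR019C), TEC1 (YBR083W), STE12 (YHR084W) and FLO8 (YER109C). Of these 8 genes, 7 had read counts among the 7127 features of the count table, and counts of FLO8 were not analysed here. RNA was sequenced from Saccharomyces cerevisiae in 4 groups of 3 libraries each: the mutant labelled Rpd3-2SA (2SA below) in glucose, wild type (WT) in glucose, 2SA in sucrose and WT in sucrose. All groups share the strain background BY4741, a haploid laboratory strain derived from S288C, and all cultures were harvested in mid-log growth, in the rich glucose medium YPD or in sucrose. What 2SA stands for, how that strain was made and how many clones stand behind it are not explained by the labels. Rpd3 is a histone deacetylase, an enzyme that removes acetyl groups from histones, and the design sets the mutant against WT in each sugar.

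Flocculins are large cell wall proteins that make yeast cells stick. Flo1, Flo5, Flo9 and Flo10 are lectin-like and bind sugars on the walls of neighbouring cells, which gathers cells into flocs, while Flo11 serves adhesion to surfaces, invasive growth and pseudohyphal filaments. Tec1 and Ste12 are transcription factors at the end of the filamentation mitogen-activated protein (MAP) kinase cascade, and Ste12 also serves the mating pheromone response. Flo8 is a transcription factor downstream of cyclic AMP signalling that activates FLO1 and FLO11.

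The S288C reference sequence carries a stop codon inside FLO8, and it is shown because the strain studied is a derivative of S288C. In the R64 reference genome (the sacCer3 build) FLO8 lies on chromosome V at chrV:375215-377614 on the minus strand, where RefSeq annotates it as a pseudogene. The stretch chrV:377171-377212 on the minus strand holds codons 135 to 148, with the in-frame TAG at codon 142 of 800 in capitals. No read of these libraries was examined at that base.
FLO8, codons 135 to 148: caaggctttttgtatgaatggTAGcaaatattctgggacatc

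FLO1, FLO5 and FLO9 are near copies of each other, and their sequences are shown because the counts of these genes depend on where shared reads were assigned. FLO1 lies at chrI:203403-208016 on the plus strand, FLO5 at chrVIII:525392-528619 on the plus strand and FLO9 at chrI:24000-27968 on the minus strand, between 22.2 and 34 kb from a chromosome end. The first 90 coding bases tell them apart. In the FLO5 and FLO9 lines capitals mark each base that differs from FLO1, and in the FLO1 line each base at which FLO5 or FLO9 differs.
FLO1: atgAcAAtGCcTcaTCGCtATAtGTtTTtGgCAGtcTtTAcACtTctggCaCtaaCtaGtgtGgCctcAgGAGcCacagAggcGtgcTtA
FLO5: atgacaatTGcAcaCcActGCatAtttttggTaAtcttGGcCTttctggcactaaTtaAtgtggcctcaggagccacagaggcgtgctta
FLO9: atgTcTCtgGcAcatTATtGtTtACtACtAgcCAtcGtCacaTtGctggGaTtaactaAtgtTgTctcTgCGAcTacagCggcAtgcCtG
Over these 90 bases FLO5 differed from FLO1 at 16 positions and FLO9 at 35. The 3' ends of the coding sequences are alike instead. The longest run held by all 3 genes was the last 109 coding bases, stop codon included, at chrI:207908-208016 in FLO1, chrVIII:528511-528619 in FLO5 and chrI:24000-24108 in FLO9.
Shared 3' end: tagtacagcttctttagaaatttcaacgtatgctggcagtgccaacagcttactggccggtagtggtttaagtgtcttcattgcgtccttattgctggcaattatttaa

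Most of the near-identical sequence lies between FLO1 and FLO9. Their best match had 94.9% identity over 2528 bp, against 87.4% over 2454 bp for FLO1 and FLO5 and 86% over 2479 bp for FLO5 and FLO9. Cut into windows of 50 bases, 53.8% of FLO1, 38.6% of FLO5 and 63.4% of FLO9 occurred at least once more in the genome. FLO10, at chrXI:646356-649865 on the plus strand, repeated 12.8% of its windows, and FLO11, at chrIX:389572-393675 on the minus strand, 28%, in both cases only inside the same gene. TEC1, at chrII:409169-410629 on the plus strand, STE12, at chrVIII:274174-276240 on the plus strand, and FLO8 had no repeated window. How reads with several matches were counted is not stated in these sources, so the values of FLO1, FLO5 and FLO9 are uncertain to that extent.

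**Figure D1:**
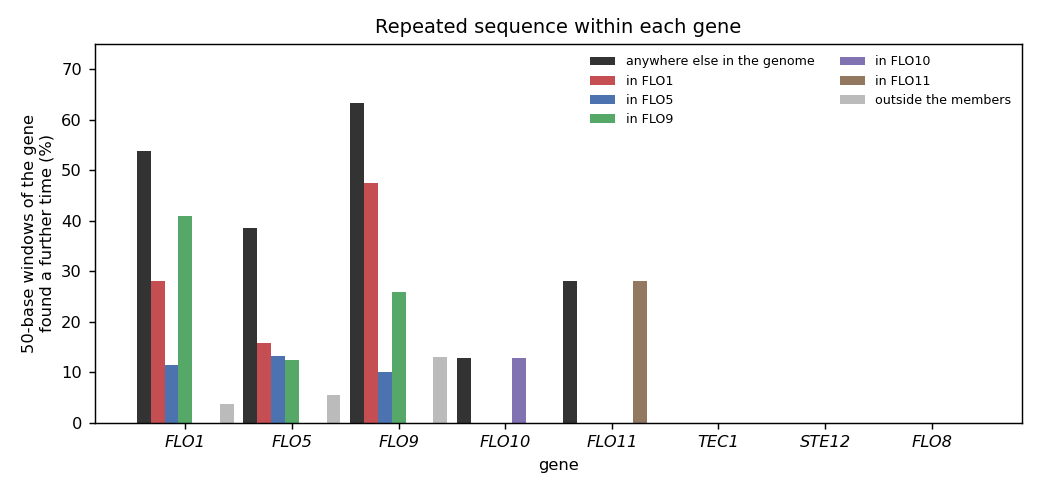
Share of the 50-base windows of each gene (y axis, %) found a further time anywhere in the genome (black), in a named flocculin, its own gene included, or outside the 8 genes. Among the 8 genes, sharing between different genes was confined to FLO1, FLO5 and FLO9, with 40.9% of FLO1 windows also in FLO9. Outside the 8 genes, 3.77% of FLO1, 5.54% of FLO5 and 13.1% of FLO9 windows were found again.

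Libraries held 20775911 to 25360037 counts, and 6085 features passed the filter on low counts, with all 7 counted genes among them. The replicates of each group differed by far more than sampling noise (chi-square of their counts at least 87.4 times its degrees of freedom), so each was counted. In WT in sucrose this ratio was 568 and 651 for the pairs with replicate 2, against 185 for replicates 1 and 3. In 2SA in sucrose it was 309 and 481, against 167. In glucose it was at most 250. Why the sucrose libraries numbered 2 stood apart was not tested. Deviations from the group means showed that libraries of the same replicate number vary together between 2SA and WT within a sugar, and the fit with a replicate block within carbon source uses this. By summed marker levels the strain's mating type fits the label, and all 6 a-specific marker genes were detected. They summed to 421 to 646 CPM (counts scaled by library size and TMM, the trimmed-mean factors of edgeR) in 2SA and 627 to 681 CPM in WT in glucose. In sucrose they summed to 267 to 338 CPM in 2SA and 342 to 592 CPM in WT. The alpha-specific genes summed to 46.8 to 69.7 CPM over the 12 libraries, most of it from SAG1. MF(ALPHA)1 was at 0.297 CPM or less, MF(ALPHA)2 at 3.38 to 6.92 CPM and STE3 at 4.67 CPM or less. Not every single marker followed the sums. SAG1, at 42.5 to 65.7 CPM, lay above the a-specific MFA1 (7.51 to 31.8 CPM) and AGA2 (9.28 to 18.9 CPM). BY4741 carries deletions of MET17, LEU2 and URA3 and a partial deletion of HIS3. Over the 12 libraries MET17 had 0 counts and LEU2 had 1, but URA3 was at 233 to 521 CPM and HIS3 at 29.8 to 69.1 CPM. A deleted URA3 would give no reads, yet both genotypes had them. The labels do not explain where these reads come from, and their part in the results was not tested.

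The regulators were expressed well above most of the flocculins. Per kilobase of gene length, averaged over the 12 libraries, TEC1 was highest at 81.9 CPM per kb, followed by STE12 at 31.3, FLO9 at 28.5, FLO5 at 9.67, FLO11 at 2.64, FLO1 at 2.45 and FLO10 at 1.94 CPM per kb. FLO11, FLO1 and FLO10 were among the lowest features tested, at percentiles 4.70, 4.31 and 3.40 of this level, while FLO9 was at percentile 33.3 and TEC1 at 62.3. Set side by side within a library, TEC1 was above STE12, FLO9 above FLO5 and FLO5 above FLO11 in 12 of 12 libraries. The order was not fixed for the other neighbours: STE12 was above FLO9 in 9 of 12 libraries, FLO11 above FLO1 in 8 and FLO1 above FLO10 in 7. Levels per kb used full gene length, repeated sequence included. How reads with several matches were counted is not stated, so the places of the flocculins in this order are uncertain. Counts per library were as low as 65 for FLO10, 92 for FLO1 and 158 for FLO11, and at least 1045 for TEC1.

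**Figure D2:**
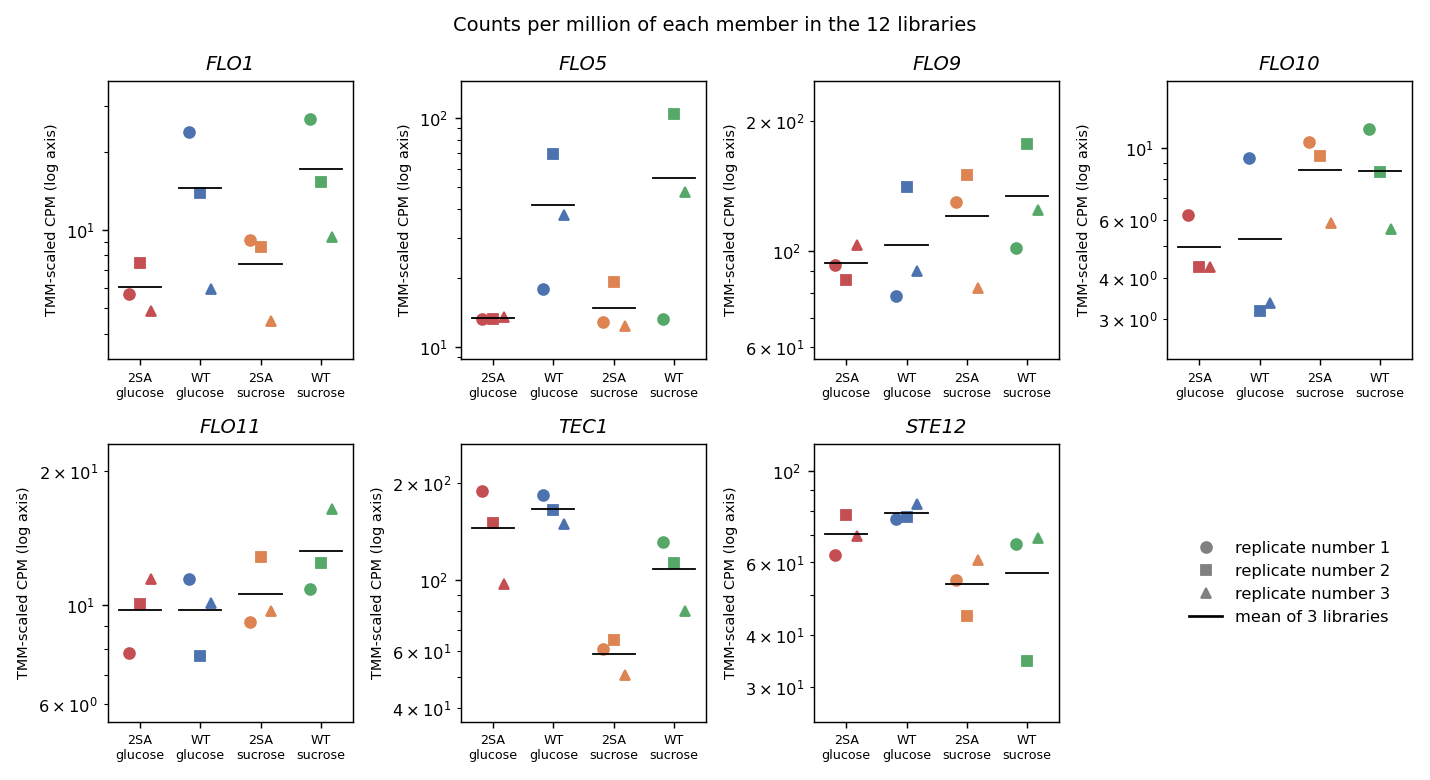
TMM-scaled CPM (log axis) of the 7 counted genes in each library, with groups on the x axis, replicate number as marker shape and the mean of 3 libraries as a line. FLO5 lies between 12.4 and 19.2 CPM in all 6 2SA libraries and between 13.3 and 104 CPM in the WT libraries, and TEC1 is lowest in 2SA in sucrose.

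The clearest difference among these genes was in TEC1, the transcription factor that pairs with Ste12 at filamentation genes. In the 2SA mutant TEC1 fell in sucrose. Its level was 61.2, 65.2 and 50.8 CPM in 2SA in sucrose, against 189, 150 and 97.1 CPM in 2SA in glucose. The groups did not overlap, and the log2 fold change was -1.30 ± 0.25 (SE, n = 3 each), a 2.46-fold lower level, with an adjusted p of 0.0319 by edgeR's quasi-likelihood test. It was the 1 gene of the 7 that passed in this comparison, where 1.89% of all tested features were called (Benjamini-Hochberg adjusted p under 0.05 and a fold change over 1.5). DESeq2 also called TEC1 alone of the 7, with an adjusted p of 5.61e-05. It called more features in all, 345 against 115 by edgeR. The edgeR call depended on single libraries. Among the compared libraries the adjusted p was 0.118 without 2SA glucose replicate 1, 0.134 without 2SA glucose replicate 2, 0.122, 0.0719 and 0.0661 without 2SA sucrose replicates 1, 2 and 3, and it was 0.0537 and 0.0549 without WT glucose replicates 2 and 3. The log2 fold change stayed between -1.52 and -1.06 whichever library was left out.

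In WT the same comparison gave a smaller TEC1 difference. TEC1 was at 131, 113 and 80.2 CPM in WT in sucrose and at 184, 165 and 149 CPM in WT in glucose, again with no overlap. The log2 fold change was -0.62 ± 0.24, with an adjusted p of 0.156 by edgeR's quasi-likelihood test. With the replicate number as an additive block it was -0.65, with an adjusted p of 0.0212, which passes, although same-numbered libraries of the sugars did not vary together in every pair. None of the 7 genes was called in WT without the block by edgeR or by DESeq2, where edgeR called 3.43% of all tested features. An unadjusted edgeR p under 0.05 was seen for 1 of the 7 (TEC1), against 1461 of the 6085 features tested.

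The sucrose response of TEC1 was not shown to differ between the genotypes. The interaction was -0.68 ± 0.34 on the log2 scale, with a 95% interval of -1.43 to 0.08 and an edgeR adjusted p of 1.0. With the replicate block within carbon source it was -0.61, with an adjusted p of 0.974. No tested feature passed for the interaction in either fit (0%), and DESeq2 called none of the 7 genes. The unadjusted p of TEC1 was 0.0737 without a block and 0.00961 with the block. Without a block none of the 7 genes and 10 of all features had an unadjusted p under 0.05.

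Between the genotypes TEC1 stood lower in 2SA than in WT in sucrose. The 2SA levels of 61.2, 65.2 and 50.8 CPM all lay under the WT levels of 131, 113 and 80.2 CPM, and 2SA was lower in 3 of 3 same-numbered pairs. These 2SA sucrose libraries are the same ones that enter the sugar comparison above, so the results are not independent. Without a block the log2 fold change was -0.87 ± 0.24 (SE, n = 3 each), with an edgeR adjusted p of 0.507, and TEC1 was not called. With the replicate block within carbon source it was -0.85 ± 0.13, with an edgeR adjusted p of 0.0156, which passes. That block called 1 of the 7 genes in sucrose, against 1.84% of all tested features, where the fit with no block called none of the 7 and 0.0657% of all features. The blocked call held without the libraries numbered 1 (adjusted p = 0.0176) or 3 (adjusted p = 0.0497) and was lost without those numbered 2 (adjusted p = 0.178). In glucose TEC1 was at 189, 150 and 97.1 CPM in 2SA and 184, 165 and 149 CPM in WT. That log2 difference was -0.19 ± 0.24, with a 95% interval of -0.72 to 0.34, and was not called in either fit.

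TEC1 is also the gene whose upstream region holds the most matches to the pheromone response element, the site Ste12 binds. The letters TGAAACA were searched on both strands in the 600 bases before each coding start, and TEC1 had 4 matches, starting 509, 390, 159 and 94 bases before its start. It was the only 1 of 5999 upstream regions with at least 4 (0.0167%), while 14.6% had at least 1. Tec1's own site, searched as CATTCC on both strands, had 2 matches in TEC1, a number reached by 2.48% of regions. The 300 bases chrII:408639-408938 on the plus strand, within the searched region, are shown because they hold 4 of these 6 matches, written in capitals.
TEC1 upstream: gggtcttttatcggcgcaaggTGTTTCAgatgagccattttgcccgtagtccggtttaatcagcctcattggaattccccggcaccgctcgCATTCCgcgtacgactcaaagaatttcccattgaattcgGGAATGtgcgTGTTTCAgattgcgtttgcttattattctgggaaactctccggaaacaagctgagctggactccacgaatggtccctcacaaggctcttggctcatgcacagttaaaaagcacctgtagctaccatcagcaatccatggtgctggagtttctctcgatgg
Matches read as TGTTTCA or GGAATG lie on the minus strand, and no match overlaps another. STE12 had 3 TGAAACA matches upstream, a number reached by 0.1% of regions, and no CATTCC. The flocculins and FLO8 had no TGAAACA, while FLO9, FLO11 and FLO8 had 1 CATTCC each, a number reached by 21.8% of regions. A match describes letters only and is no evidence that either factor binds there.

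STE12, whose product partners with Tec1 at filamentation genes and acts without it at mating genes, differed less than TEC1. It was at 54.4, 44.5 and 60.7 CPM in 2SA in sucrose and 62.5, 78.3 and 69.6 CPM in 2SA in glucose. In WT it was at 66.4, 34.6 and 68.7 CPM in sucrose and 76.4, 77.4 and 83.0 CPM in glucose. All sucrose libraries were thus under all glucose libraries within each genotype, as for TEC1. Non-overlap of this kind was seen for 2 of the 7 genes in each genotype, against 27.2% of all tested features in 2SA and 26.3% in WT. The log2 fold changes of STE12 were -0.40 ± 0.23 in 2SA and -0.48 ± 0.23 in WT, with edgeR adjusted p of 0.393 and 0.227. Between genotypes STE12 differed by -0.09 ± 0.23 in sucrose and -0.17 ± 0.23 in glucose, with 95% intervals of -0.59 to 0.41 and -0.67 to 0.33, and was not called.

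Among the flocculins, FLO1 and FLO5 stood lower in 2SA than in WT in both sugars but did not pass the test. FLO5 was at 13.2, 13.3 and 13.5 CPM in 2SA in glucose, against 17.9, 69.9 and 37.8 CPM in WT in glucose. In sucrose it was at 12.8, 19.2 and 12.4 CPM in 2SA, against 13.3, 104 and 47.7 CPM in WT. The 2SA libraries were close together and the WT libraries far apart. The highest FLO5 value in a group was 1.02 times its lowest in 2SA in glucose and 1.55 times in 2SA in sucrose, against 3.90 times in WT in glucose and 7.80 times in WT in sucrose. The groups did not overlap in glucose and overlapped in sucrose, where WT replicate 1 lay among the 2SA libraries. The cultures were sequenced in bulk, so fewer cells expressing a gene and less of its RNA per cell cannot be told apart.

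FLO5 had log2 fold changes between 2SA and WT of -1.65 ± 0.62 in glucose and -1.89 ± 0.63 in sucrose (SE, n = 3 each). The edgeR adjusted p was 1.0 in glucose and 0.824 in sucrose, and 95% intervals ran from -3.02 to -0.28 and from -3.27 to -0.51. With the replicate block within carbon source the adjusted p was 0.297 in glucose and 0.111 in sucrose. With that block and the libraries numbered 1 left out, FLO5 passed in both sugars, with edgeR adjusted p of 0.00161 in glucose and 0.000441 in sucrose. Without the libraries numbered 2 the same block gave -0.98 and -1.01, with adjusted p of 0.654 and 0.422. Without a block, leaving out WT replicate 2 alone moved the log2 fold change of FLO5 to -1.06 in glucose and -1.04 in sucrose. The settings with a block and a number left out were chosen after seeing the data, and the libraries numbered 1 are those in which FLO5 of WT and 2SA lay closest.

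FLO1, the best known of the flocculation genes, was at 5.69, 7.49 and 4.87 CPM in 2SA in glucose, against 23.8, 13.9 and 5.93 CPM in WT in glucose. In sucrose it was at 9.19, 8.64 and 4.47 CPM in 2SA, against 26.7, 15.4 and 9.38 CPM in WT. All WT libraries were above all 2SA libraries in sucrose, and in glucose WT replicate 3 lay among the 2SA libraries. The log2 fold changes were -1.27 ± 0.50 in glucose and -1.20 ± 0.50 in sucrose (SE, n = 3 each), with edgeR adjusted p of 1.0 and 0.998. With the replicate block within carbon source they were -1.11 and -1.15, with adjusted p of 0.220 and 0.0685. When the libraries numbered 1 were also left out, FLO1 passed in sucrose (-0.93, adjusted p = 0.0274) and not in glucose (-0.62, adjusted p = 0.295). Without a block, leaving out WT replicate 1 alone moved the log2 fold change of FLO1 to -0.72 in glucose and -0.73 in sucrose. For FLO1 and FLO5 alike, 2SA was lower in 3 of 3 same-numbered pairs in each sugar.

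Between the genotypes few features were called at all. None of the 7 genes was called between 2SA and WT in glucose by edgeR or DESeq2, where 0.0822% of all tested features were called without a block and 0.477% with the block within carbon source. In glucose 2 of the 7 (FLO1 and FLO5) had an unadjusted p under 0.05, and in sucrose 3 of the 7 (with TEC1), against 171 and 242 of the 6085 features tested. Libraries of the 2 genotypes did not overlap for 1 of the 7 in glucose, where 7.35% of features did not, and for 2 of the 7 in sucrose, where 6.26% did not. The median log2 fold change of the 7 genes was -0.17 in glucose and -0.32 in sucrose, against 0.01 and 0.00 over all features tested.

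The WT libraries that stood high were not the same for the 2 genes. FLO1 was highest in WT replicate 1 in glucose and in sucrose, and FLO5 was highest in WT replicate 2 and lowest in WT replicate 1 in both. FLO9, which shares 47.4% of its windows with FLO1 and 10% with FLO5, was highest in WT replicate 2 in both sugars. An uncharacterised reading frame just downstream of FLO1, YAR053W, followed FLO1's order at its top: it had 29 counts in WT glucose replicate 1 and 37 in WT sucrose replicate 1, and between 1 and 4 counts in each of the other 10 libraries. It lies 351 bp past the end of FLO1 on the same strand and was too low to be tested. The cause of the spread between the WT libraries was not tested.

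FLO9, the flocculin with the highest level, was at 92.8, 85.8 and 103 CPM in 2SA in glucose, against 78.9, 141 and 90.03 CPM in WT in glucose. In sucrose it was at 130, 150 and 82.0 CPM in 2SA, against 101, 177 and 124 CPM in WT. The groups overlapped throughout. Log2 fold changes between 2SA and WT were -0.14 ± 0.28 in glucose and -0.15 ± 0.28 in sucrose, and those between sucrose and glucose were 0.36 ± 0.28 in 2SA and 0.38 ± 0.28 in WT. None passed. The 95% intervals between 2SA and WT ran from -0.75 to 0.48 in glucose and from -0.77 to 0.47 in sucrose, and between sucrose and glucose from -0.25 to 0.98 in 2SA and from -0.24 to 1.0 in WT.

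FLO10, a flocculin of the same type whose sequence is more distant, was at 6.22, 4.32 and 4.33 CPM in 2SA in glucose, against 9.31, 3.16 and 3.35 CPM in WT in glucose. In sucrose it was at 10.4, 9.39 and 5.88 CPM in 2SA, against 11.4, 8.44 and 5.62 CPM in WT. Its mean level was higher in sucrose than in glucose in both genotypes, with overlapping libraries. The log2 fold changes were 0.79 ± 0.43 in 2SA and 0.69 ± 0.43 in WT, with edgeR adjusted p of 0.361 and 0.347. Between 2SA and WT they were -0.09 ± 0.43 in glucose and 0.01 ± 0.42 in sucrose, with 95% intervals of -1.04 to 0.86 and -0.91 to 0.94.

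FLO11, the flocculin needed for invasive growth and pseudohyphae, was low in every library. It was at 7.83, 10.05 and 11.4 CPM in 2SA in glucose, against 11.4, 7.68 and 10.1 CPM in WT in glucose. In sucrose it was at 9.19, 12.8 and 9.72 CPM in 2SA, against 10.9, 12.4 and 16.4 CPM in WT. The groups overlapped in all comparisons. Log2 fold changes between 2SA and WT were 0.00 ± 0.23 in glucose and -0.32 ± 0.23 in sucrose, with 95% intervals of -0.51 to 0.52 and -0.83 to 0.19. Between sucrose and glucose they were 0.12 ± 0.23 in 2SA and 0.44 ± 0.23 in WT, with edgeR adjusted p of 0.840 and 0.274. FLO11 is known for its long promoter, from which a noncoding RNA, ICR1, is read across it. ICR1 lies at chrIX:393884-397082 on the minus strand, 209 bp upstream of FLO11, and was at 4.81 to 10.5 CPM with no comparison past the threshold. PWR1, its antisense partner at chrIX:395999-396939, had 0 counts in all 12 libraries. That 0 is no measure of PWR1, since 112 of 117 features lying wholly inside a feature on the other strand had 0 counts (95.7%), against 3.05% of the other 7010 features. ICR1 overlaps PWR1 and the strand setting of the counting is not given, so the ICR1 values are uncertain to that extent.

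**Figure D3:**
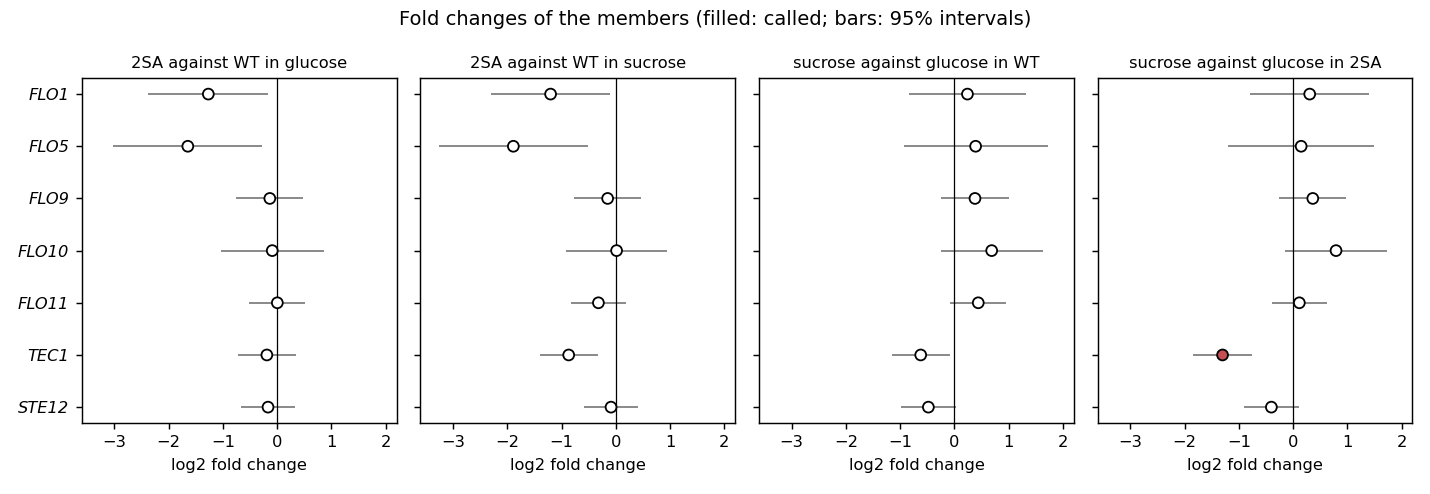
Log2 fold changes of the 7 counted genes (x axis) in the 4 comparisons of the fit without a block, with 95% intervals as bars and called genes filled. TEC1 in 2SA between sucrose and glucose, at -1.30, is the filled point, while FLO1 and FLO5 lie left of 0 between 2SA and WT with intervals that are wide.

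Genes whose levels followed FLO11 most closely were looked up by the Pearson correlation of log2 CPM over the 12 libraries, among 5445 features with a mean of at least 5 CPM. The highest were POR2 with r = 0.761, YCH1 with 0.735, FRE7 with 0.729, YMR320W with 0.727 and YDR476C with 0.725. The points share libraries and depth, FLO11 varied little, and these values are the top of 5445, so they describe the libraries only.

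Neighbouring genes were compared because 5 of the 8 genes lie near chromosome ends. GDH3, a glutamate dehydrogenase gene 3599 bp from FLO9, rose in sucrose in both genotypes, with log2 fold changes of 1.13 in 2SA and 1.16 in WT and edgeR adjusted p of 0.0338 and 0.0213. FLO9 itself was not called in either. MIS1, 425 bp downstream of TEC1, had log2 fold changes between sucrose and glucose of -0.67 in 2SA and -0.86 in WT, with edgeR adjusted p of 0.171 and 0.0692, while UBC4 on the other side of TEC1 was at 0.00 in 2SA and -0.07 in WT. No neighbour tested was called between 2SA and WT without a block. The largest of these differences was in YAR047C, 1616 bp from FLO1 on the other strand, which lay between 0.522 and 2.25 CPM. Its log2 fold change was -1.31 in glucose and -0.83 in sucrose, with edgeR adjusted p of 0.284 and 0.924. No annotated feature overlapped a flocculin, TEC1 or STE12.

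In the cascade that leads to Ste12 and Tec1, 0 of 13 genes was called between the sugars in 2SA and 1 in WT, against 1.89% and 3.43% of all tested features, so this count says nothing about the cascade as a whole. SHO1, a membrane sensor protein of the filamentation and osmotic stress pathways, was at 77.4, 53.6 and 96.2 CPM in WT in sucrose, against 143, 165 and 185 CPM in WT in glucose. It fell there by 1.12 ± 0.23 on the log2 scale, with an edgeR adjusted p of 0.0264. In 2SA SHO1 was at 103, 73.0 and 123 CPM in sucrose, against 165, 175 and 178 CPM in glucose, with an adjusted p of 0.103. DESeq2 called SHO1 in both genotypes. No gene of the cascade was called between 2SA and WT in either sugar by edgeR or DESeq2 and 0 had an unadjusted p under 0.05 without a block, and the median log2 fold change of the 13 was 0.05 in glucose and -0.06 in sucrose.

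The cyclic AMP branch, which acts through protein kinase A on Flo8 and its opponent Sfl1, had 0 called genes among 10 between the sugars in 2SA and 1 in WT, against the same shares of all features. PDE2, the phosphodiesterase that breaks down cyclic AMP, was at 37.6, 81.9 and 44.3 CPM in WT in sucrose, against 20.4, 19.4 and 19.1 CPM in WT in glucose. It rose there by 1.47 ± 0.34 on the log2 scale, with an edgeR adjusted p of 0.0388. In 2SA its log2 fold change was 1.25 ± 0.34, with an adjusted p of 0.0874. DESeq2 called PDE2 in both genotypes. No gene of the branch was called between 2SA and WT by edgeR or DESeq2, and 0 had an unadjusted p under 0.05 without a block. GPR1, the gene of a sugar-sensing receptor, had a log2 fold change between 2SA and WT in sucrose of -0.37 ± 0.18.

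Of 17 other regulators of the FLO11 promoter, none was called in any comparison by edgeR, while DESeq2 called MGA1 and RME1 between sucrose and glucose in 2SA. Without a block, 4 of the 17 had an unadjusted p under 0.05 between the sugars in 2SA, against 1101 of 6085 features, and 6 of the 17 in WT, against 1461 of 6085. Between 2SA and WT 0 did in either sugar. MGA1, a transcription factor gene linked to pseudohyphal growth, had log2 fold changes between sucrose and glucose of -1.48 ± 0.46 in 2SA and -1.05 ± 0.45 in WT, with edgeR adjusted p of 0.122 and 0.192. PHD1, another activator of pseudohyphal growth, had 1.04 ± 0.39 in WT, with an adjusted p of 0.142. Between 2SA and WT 14 of the 17 were below 0 in sucrose and 15 in glucose. Their medians were -0.14 and -0.17, against -0.003 and 0.009 over all features tested.

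Target genes of Ste12 were read in 2 groups. Of 6 targets of Ste12 and Tec1 in filamentation, none was called in any comparison by edgeR or DESeq2. Without a block, 2 (PGU1 and NFG1) had an unadjusted edgeR p under 0.05 between 2SA and WT in sucrose and 1 (NFG1) in glucose. Over the 6085 features tested, 242 and 171 did. Between the sugars 1 (PGU1) did in each genotype, against 1101 of all features in 2SA and 1461 in WT. PGU1, which encodes a secreted pectin-degrading enzyme, was at 22.8, 24.2 and 23.9 CPM in 2SA in sucrose, against 37.2, 31.0 and 30.7 CPM in WT in sucrose. The groups did not overlap, with a log2 fold change of -0.48 ± 0.14 and an edgeR adjusted p of 0.555. NFG1 (YLR042C), a negative regulator of the filamentation pathway, had log2 fold changes between 2SA and WT of -1.15 ± 0.49 in sucrose and -1.10 ± 0.48 in glucose and did not pass.

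Pheromone targets of Ste12 numbered 14, of which 13 were tested and FIG1 was too low. Between sucrose and glucose all 13 tested were below 0 in 2SA and in WT, with medians of -0.45 and -0.57 against 0.02 and 0.04 over all features, and 1 of the 13 passed in each, against 1.89% of all tested features in 2SA and 3.43% in WT. SST2, which turns off the pheromone signal, was at 42.8, 31.0 and 42.7 CPM in 2SA in sucrose, against 87.6, 77.5 and 72.02 CPM in 2SA in glucose. It fell by 1.03 ± 0.21 in 2SA and by 0.93 ± 0.21 in WT on the log2 scale, with edgeR adjusted p of 0.0382 and 0.0383. DESeq2 also called STE2, the pheromone receptor, and BAR1 in 2SA.

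Between 2SA and WT no pheromone target was called without a block by edgeR or DESeq2. An unadjusted edgeR p under 0.05 was seen for 3 of the 13 in sucrose and 1 in glucose, against 242 and 171 of the 6085 features tested. All 13 were below 0 in sucrose and 11 of 13 in glucose. Their medians were -0.31 and -0.24, against -0.003 and 0.009 over all features tested. BAR1, the protease that degrades alpha factor, was at 23.0, 19.7 and 29.0 CPM in 2SA in sucrose, against 60.1, 23.6 and 56.8 CPM in WT in sucrose. With the replicate block within carbon source it passed in sucrose at -0.88 ± 0.19, with an edgeR adjusted p of 0.0482. FUS1, a cell fusion gene, had the largest difference, at -1.81 ± 0.65 in sucrose and -1.39 ± 0.63 in glucose, and did not pass in either fit. BAR1 and STE2 are also a-specific genes, so they belong to the marker sums given above.

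**Figure D4:**
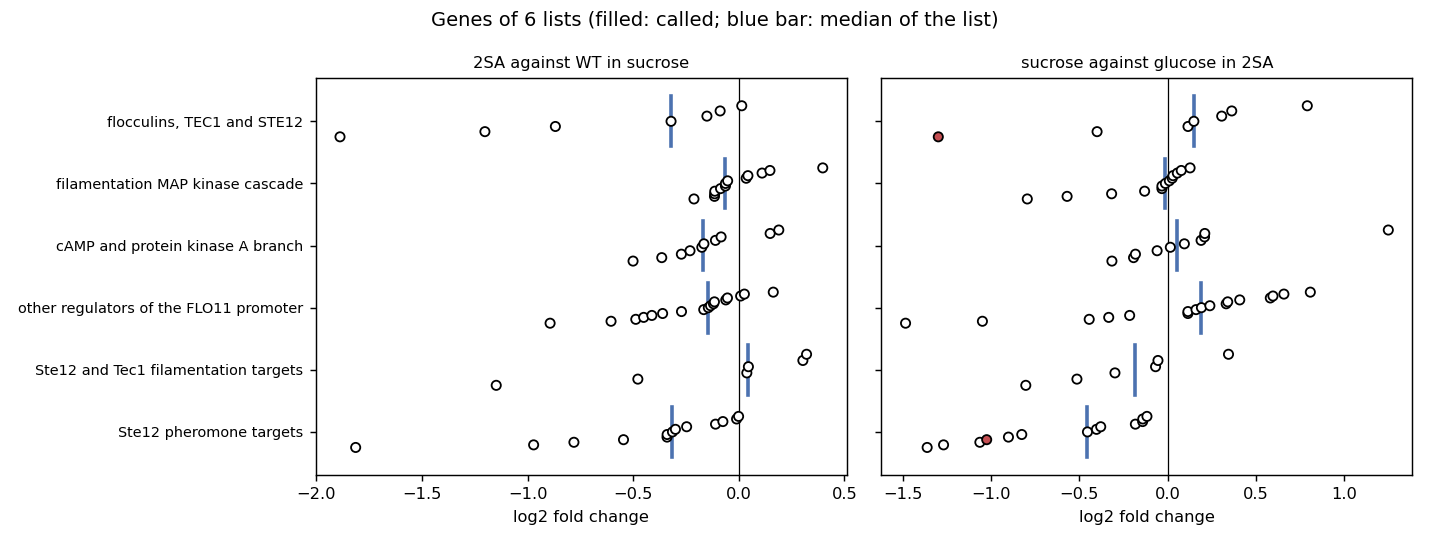
Log2 fold change (x axis) of each tested gene of the 6 gene lists, for 2SA against WT in sucrose and for sucrose against glucose in 2SA, without a block. Blue bars are medians and called genes are filled, which in the second panel are TEC1 and SST2.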

How the data were processed

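The authors deposited 1 table of raw read counts per feature, with a Length column in bases (another deposited value, used for levels per kilobase). Reads were aligned with Bowtie 0.12.2 to sacCer3, per the submitters' processing notes. No source used here gives the counting program, its strand setting or its treatment of reads with several matches. Groups and replicate numbers came from sample titles, and the design text calls replicates biological.

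Counts were tested with edgeR 4.0.16 (R 4.3.3) by the quasi-likelihood F-test on all 12 libraries, with TMM scaling (factors 0.922 to 1.11) and the default filter (minimum count 10, 6085 kept, 1042 not tested). Residual degrees of freedom were 8, and 4 with a replicate block within carbon source. Genes were called at Benjamini-Hochberg adjusted p under 0.05 and fold change over 1.5, the design text's thresholds. DESeq2 1.42.0, RLE scaling, no filter, left-out libraries and blocks were alternatives. Scripts were tested on simulated data for 2SA against WT in sucrose. Within a fit every simulated gene had the same spread (a dispersion of 0.0719 without a block), and no replicate effect was simulated. Without a block the fit recovered 34% of 100 genes changed 2-fold and 99% of 100 changed 4-fold. With the block within carbon source, simulated at the lower spread of that fit, it recovered 94% and 100%. A gene not called without a block can thus still differ 2-fold. Genes with a wider spread than the simulated one are not covered by these shares. FLO5 was 3.70-fold lower in 2SA than in WT in sucrose and was not called.

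Deviations of same-numbered 2SA and WT libraries correlated in glucose (r of 0.654, 0.610, 0.545) and in sucrose (r of 0.603, 0.847, 0.799), so numbers were taken to pair genotypes within a sugar. Pairing needed r over 0.1 in every pair. Across sugars r was 0.250, -0.195 and 0.335 in 2SA and 0.359, -0.0948 and 0.479 in WT, so numbers were not taken to pair sugars.

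The 8 genes and the gene groups were chosen with earlier results of these data known. Named besides the 8 genes were up to 4 called genes of each group by size of change (with none called, up to 2 with a mean of at least 5 CPM), neighbours, and the 5 genes most like FLO11. Sequences were read from RefSeq's R64 genome, whose starts and ends were those of the table for 99.8% of 5766 features. Near copies were found with BLAST+ 2.17.0.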

Additional observations from a re-analysis of the deposited data

How the results depend on the processing

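Values under other settings are log2 fold changes of a gene or counts of called features. Without a block 5 and 4 features were called between 2SA and WT in glucose and in sucrose, and 115 and 209 between sucrose and glucose in 2SA and in WT. DESeq2 called 29 and 42 between the genotypes in glucose and in sucrose, and 345 and 534 between the sugars in 2SA and in WT. Fits on only the libraries compared called 1 and 0 between the genotypes and 5 and 10 between the sugars, lost the 1 call among the 7 genes (TEC1 in 2SA, adjusted p 0.0698, leaving 0), and put FLO11 at -0.0015 between 2SA and WT in glucose. With all libraries numbered 2 left out, the counts were 1 and 0 between the genotypes and 0 and 0 between the sugars, and 0 of the 7 genes was called between the sugars in 2SA. FLO9 was then at 0.21 and FLO11 at -0.17 between 2SA and WT in glucose, FLO10 at -0.057 between 2SA and WT in sucrose, and FLO5 at -0.072 and FLO11 at -0.016 between sucrose and glucose in 2SA. These fits have fewer libraries, and the cause was not tested further.

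The additive replicate block called 9 and 10 features between the genotypes, and 347 and 636 between the sugars in 2SA and in WT, with 1 of the 7 genes (TEC1) called in WT. It put FLO10 at 0.026 and FLO11 at -0.017 between 2SA and WT in glucose and FLO1 at -0.081 for the interaction. The replicate block within carbon source called 29 and 112 features between the genotypes in glucose and in sucrose, and 1 of the 7 genes (TEC1) in sucrose. It put FLO10 at 0.043 between 2SA and WT in glucose, and FLO1 at -0.046 and FLO10 at -0.016 for the interaction. This block changed no other call of the 7 genes. With that block and libraries of 1 number left out, settings chosen after seeing the data, 65 and 150 features were called without number 1, with 1 of the 7 genes in glucose and 3 in sucrose, FLO10 at 0.41 in glucose and STE12 at 0.088 in sucrose. Without number 2 the counts were 10 and 15, with FLO9 at 0.21 and FLO11 at -0.19 in glucose and FLO10 at -0.033 in sucrose. Without number 3, 19 were called in sucrose, 1 of the 7 genes among them, with FLO11 at -0.086 in glucose and FLO9 at 0.051, FLO10 at -5e-04 and STE12 at 0.023 in sucrose.

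Leaving out 1 library at a time gave 1 to 6 called features between 2SA and WT in glucose, 1 to 4 in sucrose, 3 to 157 between sucrose and glucose in 2SA and 12 to 426 in WT, and 0 to 1 of the 7 genes in 2SA. Between 2SA and WT in glucose FLO9 ran from -0.30 to 0.15, FLO10 from -0.35 to 0.60, FLO11 from -0.14 to 0.14 and TEC1 from -0.42 to 0.032. Between 2SA and WT in sucrose FLO9 ran from -0.33 to 0.10, FLO10 from -0.20 to 0.29 and STE12 from -0.34 to 0.092. Between sucrose and glucose FLO5 ran from -0.078 to 0.26 and FLO11 from -0.045 to 0.24 in 2SA, and FLO1 from -0.23 to 0.79 and FLO5 from -0.47 to 0.98 in WT. For the interaction FLO1 ran from -0.48 to 0.54, FLO5 from -0.83 to 0.61, FLO9 from -0.30 to 0.24, FLO10 from -0.59 to 0.38 and STE12 from -0.17 to 0.27. None of the values that changed sign was called. RLE scaling and no filter on low counts changed no call of the 7 genes.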
